A study of Mus musculus with 18 samples.

Results

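The 10 dual-specificity phosphatase genes Dusp1, Dusp2, Dusp3, Dusp4, Dusp5, Dusp6, Dusp8, Dusp10, Dusp14 and Dusp16 were followed by name through bulk, single-cell, single-nucleus and spatial RNA data of the mouse urinary bladder. They are 10 of the 29214 genes listed in the bulk table, which also lists 14 other Dusp genes. They were picked by gene name, with no threshold on a measured value but with earlier results of these data known. Dual-specificity phosphatases remove phosphate from both the threonine and the tyrosine whose phosphorylation activates a MAP kinase, and so end signalling through ERK, JNK and p38. Dusp1, Dusp2, Dusp4 and Dusp5 encode nuclear enzymes whose genes are themselves switched on by growth factors and stress. Dusp6 encodes a cytoplasmic phosphatase selective for ERK. Dusp8, Dusp10 and Dusp16 encode enzymes that act mainly on JNK and p38, and Dusp3 and Dusp14 encode small atypical members without the usual kinase-binding domain. The bladder wall holds a urothelium that lines the lumen, a fibroblast-rich layer beneath it and the detrusor, the smooth muscle that empties the organ.

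All animals were C57BL/6 mice with no treatment or transgene named in the labels, and each library pooled several of them. Bulk RNA came from 12-month females, 3 animals per library, with 3 libraries of intact bladder tissue and 3 of dissociated bladder. Whole-bladder cells gave 5 libraries: 3 males of 22 months, 3 males of 3 months, 2 females with 2 males of 12 months (2 libraries) and 2 females with 2 males of 24 months. Nuclei gave 1 library (2 females and 2 males of 12 months), and the detrusor gave 2 cell libraries of 14 months, 1 of detrusor alone (3 females) and 1 enriched for it (2 females and 2 males). Frozen sections on a spotted array came from males, 2 sections of 22 months and 2 of 14 months, each labelled with 4 males. The labels do not tie libraries or sections to separate animals, so the p-values measure the spread between these samples, which may in part be technical.

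Bulk libraries held 23083752 to 68760791 reads. The droplet libraries kept 948 to 8420 cells or nuclei, with median counts of unique molecular identifiers (UMIs, each standing for 1 captured RNA molecule) per kept barcode from 1119 in nuclei to 15753 in the second 12-month library. Sections held 937 to 1317 spots and 21975462 to 32020077 UMIs. Levels are given as CPM, counts scaled to a fixed total of the library, class or spot set. They are not scaled by gene length, so they are compared between samples and cell classes and not between genes. Cells were grouped per library and named "-like" after markers, with the 10 members left out of the clustering. The 2 male libraries were 13.6% and 24.5% urothelial-like and 55.0% and 59.8% fibroblast-like. The 3 mixed-sex libraries were 63.9% to 77.5% urothelial-like and 15.2% to 24.9% fibroblast-like. The male tables also hold 0 counts for mitochondrial genes, so sex cannot be told apart from these differences in preparation. In the 22-month male library 1296 cells (15.4%) stayed unnamed, most of them in a cluster led by both fibroblast and smooth muscle genes. The detrusor-enriched library held 1155 unnamed cells (22.4%), with a median of 586 UMIs. Unnamed cells made up at most 5.14% of any other library. At most 64 cell barcodes were shared between any 2 droplet libraries.

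RefSeq promoters on GRCm38.p6, the assembly of the mm10 build named in the submitters' processing notes, were found for 9 of the 10 members. The 250 bases before the transcription start are shown for Dusp1, Dusp5 and Dusp8, the members with a motif match, and for Dusp2 and Dusp3 beside them. Dusp1 lies at chr17:26505591-26508472, Dusp2 at chr2:127336159-127338377, Dusp3 at chr11:101971141-101987013, Dusp5 at chr19:53529145-53541809 and Dusp8 at chr7:142079487-142095907. The promoter windows are chr17:26508473-26508722 (minus strand) for Dusp1, chr2:127335909-127336158 (plus strand) for Dusp2, chr11:101984792-101985041 (minus strand) for Dusp3, chr19:53528895-53529144 (plus strand) for Dusp5 and chr7:142095285-142095534 (minus strand) for Dusp8. The RefSeq spans of Dusp3 and Dusp8 extend past the starts used here. All are given 5′ to 3′ on the gene's strand. Capitals mark matches to the cyclic AMP response element (CRE) TGACGTCA and to the CArG box, the site of serum response factor.
Dusp1: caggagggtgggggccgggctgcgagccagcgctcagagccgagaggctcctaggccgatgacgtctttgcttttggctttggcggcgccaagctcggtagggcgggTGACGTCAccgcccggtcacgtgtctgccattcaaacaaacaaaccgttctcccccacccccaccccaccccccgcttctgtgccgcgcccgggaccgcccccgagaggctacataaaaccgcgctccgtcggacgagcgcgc
Dusp5: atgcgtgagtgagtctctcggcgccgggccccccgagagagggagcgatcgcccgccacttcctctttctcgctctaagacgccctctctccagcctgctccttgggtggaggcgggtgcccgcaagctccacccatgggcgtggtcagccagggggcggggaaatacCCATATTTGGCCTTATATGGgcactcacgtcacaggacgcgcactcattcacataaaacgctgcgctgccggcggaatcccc
Dusp8: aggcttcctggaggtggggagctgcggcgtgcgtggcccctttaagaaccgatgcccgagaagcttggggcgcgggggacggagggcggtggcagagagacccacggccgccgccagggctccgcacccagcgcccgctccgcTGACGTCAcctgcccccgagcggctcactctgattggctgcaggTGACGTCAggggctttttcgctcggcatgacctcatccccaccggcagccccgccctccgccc
Dusp2: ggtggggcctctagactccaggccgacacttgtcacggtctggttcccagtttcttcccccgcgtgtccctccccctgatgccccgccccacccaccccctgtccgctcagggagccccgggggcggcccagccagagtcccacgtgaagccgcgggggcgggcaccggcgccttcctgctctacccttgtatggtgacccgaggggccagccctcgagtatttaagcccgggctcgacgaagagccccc
Dusp3: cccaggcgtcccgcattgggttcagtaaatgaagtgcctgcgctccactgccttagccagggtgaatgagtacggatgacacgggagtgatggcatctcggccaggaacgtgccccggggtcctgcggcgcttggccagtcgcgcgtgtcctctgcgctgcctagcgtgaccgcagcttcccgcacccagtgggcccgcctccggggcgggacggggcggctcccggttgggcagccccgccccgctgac
The Dusp1 window holds 1 CRE, which begins 143 bases before the start. The Dusp8 window holds 2 CREs, beginning 107 and 63 bases before the start. The Dusp5 window holds 2 adjoining CArG boxes, beginning 82 and 72 bases before the start. The AP-1 site TGANTCA was searched as well and occurs in none of the 9 windows. Each pattern reads the same on both strands and none of the matches overlap. Of 32851 RefSeq promoter windows of this length, 1.55% hold the CRE, 1.47% a CArG box and 6.75% the AP-1 site. GC content was 56.4% to 71.6% in the 9 members against a median of 52.4% over all windows. A match describes letters in a window, and binding was not measured.

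Dissociated bladder held higher levels of the inducible nuclear phosphatase RNAs and a lower level of Dusp3 RNA than intact bladder. In bulk RNA, 8 of the 10 members rose in dissociated against intact bladder, Dusp3 fell, and Dusp8 did not pass the test (edgeR quasi-likelihood test, two-sided, Benjamini-Hochberg adjusted p under 0.05 over 16538 genes). Of all genes tested, 59.2% were called, 27.9% as higher and 31.3% as lower, so a call alone is common here. The members' median log2 fold change was 1.55, against -0.03 over all genes tested.

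Dusp1, the prototype of the immediate-early phosphatases, stood at 22.5, 21.1 and 37.2 CPM in the intact libraries and at 985, 821 and 812 CPM in the dissociated ones. The groups lie far apart, and the mean level was 32.4-fold higher after dissociation (log2 fold change 5.13, SE 0.25, adjusted p = 5.1e-06 by edgeR). Dusp5, which encodes a nuclear phosphatase restricted to ERK, was measured at 5.67, 4.58 and 9.15 CPM in intact tissue and at 62.6, 89.0 and 93.8 CPM after dissociation. Each dissociated library exceeded each intact one, and the fitted rise was 3.80 on the log2 scale (SE 0.28). Dusp2, best known from activated lymphocytes, had 1.26, 2.59 and 2.35 CPM in intact tissue and 16.6, 28.6 and 15.5 CPM in dissociated bladder. Its rise was 3.36 on the log2 scale (SE 0.32, adjusted p = 0.00012 by edgeR), again without overlap. Dusp4, a nuclear phosphatase of ERK and JNK, rose from 40.8, 29.6 and 34.3 CPM to 127, 171 and 208 CPM (log2 fold change 2.39, SE 0.20).

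Dusp6, a feedback inhibitor of ERK in the cytoplasm, rose from 28.7, 18.2 and 20.5 CPM to 65.0, 75.7 and 97.5 CPM (log2 fold change 1.94, SE 0.21). For Dusp16, Dusp10 and Dusp8, which act mainly on JNK and p38, the differences fitted with all libraries were smaller, an order that was not tested. Dusp16 rose from 99.8, 88.3 and 94.9 CPM to 119, 136 and 143 CPM (log2 fold change 0.61, SE 0.10). Dusp10 went from 6.89, 6.44 and 12.1 CPM to 13.3, 26.3 and 13.3 CPM. Its groups come close to touching, and the call (log2 fold change 1.17, adjusted p = 0.018 by edgeR) is lost without intact library 1 (adjusted p = 0.072) or without intact library 2 (adjusted p = 0.075). Dusp8 was at 10.1, 7.87 and 31.2 CPM in intact tissue and at 31.8, 31.2 and 29.5 CPM after dissociation. Intact library 3 lies among the dissociated values, and the difference of 1.04 (log2, 2 SE interval 0.11 to 1.97) gave an adjusted p of 0.089 by edgeR. Without that library it was 1.89 with an adjusted p of 0.00013.

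The atypical members went opposite ways. Dusp14 rose from 4.94, 6.08 and 6.27 CPM to 9.22, 11.0 and 11.6 CPM (log2 fold change 0.99, SE 0.15). Dusp3 fell from 92.8, 90.9 and 106 CPM to 52.7, 57.3 and 56.1 CPM (log2 fold change -0.69, SE 0.08, adjusted p = 0.0003 by edgeR). In both genes the groups did not overlap. In all, 9 of 10 members had no overlap between the groups, as did 67.9% of all genes tested.

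**Figure D1:**
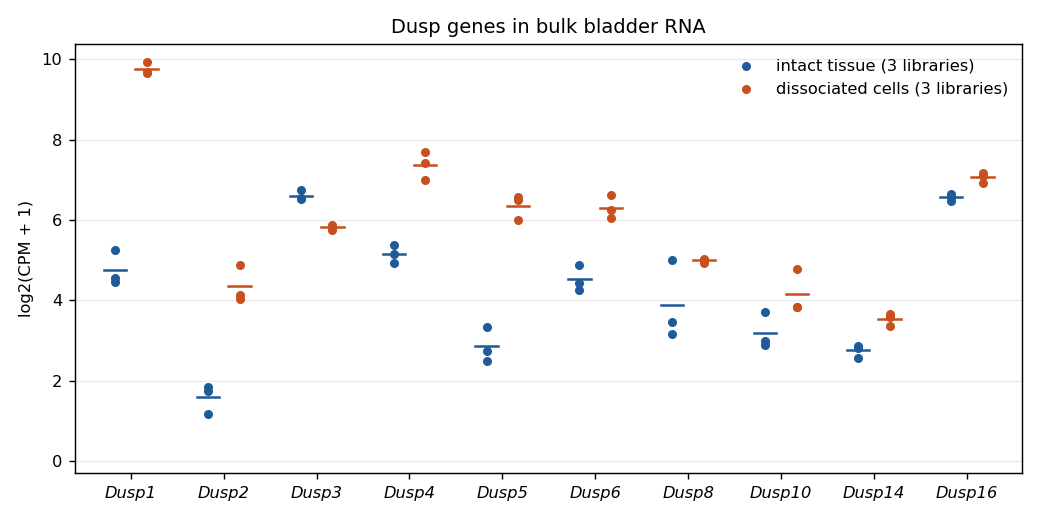
Levels of the 10 genes in bulk bladder RNA, as log2(CPM + 1) on the vertical axis. Each point is 1 library (3 of intact tissue, 3 of dissociated cells) and each bar is the group mean. Dusp1 stands furthest apart, Dusp3 is the one gene lower after dissociation, and only the Dusp8 groups overlap.

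Sums of cell-type markers in the bulk libraries moved with these levels. The summed level of 10 smooth muscle markers was 41545 to 43337 CPM in intact tissue and 2245 to 3388 CPM after dissociation. Fibroblast markers summed to 14721 to 17916 CPM and 26987 to 39475 CPM, blood endothelial markers to 379 to 420 CPM and 634 to 743 CPM, and macrophage markers to 866 to 967 CPM and 1109 to 1475 CPM. Dendritic markers went from 51.3 to 66.0 CPM to 99.9 to 207 CPM, lymphatic endothelial from 119 to 130 CPM to 194 to 247 CPM, erythroid from 73.4 to 83.5 CPM to 299 to 361 CPM and neutrophil from 4.20 to 6.20 CPM to 8.86 to 11.3 CPM. Lower after dissociation without overlap were the skeletal muscle (540 to 703 CPM and 29.5 to 53.0 CPM), pericyte (860 to 909 CPM and 569 to 658 CPM), mast, neuron, Schwann and adipocyte sums. T or NK markers overlapped, at 14.1 to 30.8 CPM and 28.8 to 107 CPM, as did the B, plasma and mesothelial sums. Urothelial markers overlapped, at 5939 to 6802 CPM and 4403 to 6534 CPM. Not every list is particular to its cell type. Urothelial-like cells of the whole-bladder libraries, named below, held 261 to 351 CPM of the neuron and 76.5 to 175 CPM of the adipocyte list. Their mesothelial sum was 2443 to 4034 CPM. Fibroblast-like cells held 23.6 to 81.0, 7.63 to 19.1 and 121 to 719 CPM of these 3 lists. The part of cell makeup in the members' differences was not tested. In bulk samples, fewer cells of a type and less RNA per cell cannot be told apart.

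Other genes of the MAP kinase pathway were read from 7 lists with 77 genes in all. Growth-factor and stress-induced transcription factors, the downstream targets, were higher after dissociation in 14 of 15 tested and lower in 0, with a median log2 fold change of 5.42. Fosb, an AP-1 subunit, rose by 9.47 and Atf3, a stress-induced repressor, by 7.61 on that scale. Their summed level went from 284 to 441 CPM in intact tissue to 13761 to 17531 CPM. Of the Sprouty and Spred genes, inhibitors of receptor signalling to ERK, 5 of 7 rose and 1 fell, with Spry2 up by 2.00, Spry4 by 1.55 and Spred3 at -0.90. The 10 other Dusp genes tested held 2 that rose and 5 that fell, led by Dusp18 at 0.78 and Dusp12 at -0.65. The 10 MAP kinases held 1 rise (Mapk8, encoding JNK1, 0.76) and 2 falls (Mapk13, encoding p38 delta, -0.60, and Mapk14, encoding p38 alpha, -0.36). Of the 7 MAP kinase kinases, Map2k3 rose by 1.57 and 2 fell (Map2k7 at -0.43, Map2k1 at -0.24). Of the 10 Raf and MAP3K genes 4 rose, led by Map3k8 (2.90) and Map3k2 (1.49), and 2 fell (Map3k20 at -1.42, Araf at -0.23). The 13 scaffolds and MAPK-activated kinases held 6 rises, led by Mknk2 (1.08), and 1 fall (Rps6ka2 at -0.47).

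Among the 3 broad classes, Dusp16 was highest in urothelial-like cells and Dusp2, Dusp3, Dusp5 and Dusp10 in immune-like cells. Dusp1 and Dusp3 were lower in urothelial-like than in fibroblast-like cells. In the 5 whole-bladder libraries the comparison of urothelial-like with fibroblast-like cells called 8 of 10 members, 4 higher and 4 lower, where 61.2% of 12183 genes were called (27.2% higher, 34% lower). Dusp4, Dusp5, Dusp6 and Dusp16 were higher in urothelial-like cells, and Dusp1, Dusp3, Dusp8 and Dusp10 were lower. The direction was the same in all 5 libraries for 7 of the 8 (all but Dusp8), as it was for 63.1% of all genes tested. Immune-like against fibroblast-like cells called 7 members, all higher, where 55.6% of genes were called (23.4% higher, 32.2% lower). They were Dusp2, Dusp3, Dusp4, Dusp5, Dusp6, Dusp10 and Dusp16. Without the library term 5 stayed called, while Dusp3 and Dusp4 lost the call (both adjusted p = 0.16 by edgeR). The calls over all genes then went from 6777 to 5330. Immune-like against urothelial-like cells called 5 as higher and 1 as lower, where 58.3% were called (27.2% higher, 31% lower). Dusp1, Dusp2, Dusp3, Dusp5 and Dusp10 were the higher ones and Dusp16 the lower. Urothelial markers summed to 12321 to 19147 CPM in urothelial-like, 335 to 1424 CPM in fibroblast-like and 379 to 2385 CPM in immune-like cells, and fibroblast markers to 31218 to 70802 CPM in fibroblast-like and 106 to 3167 CPM in urothelial-like cells. The tests used counts summed per library and class, with library as a block. Ranks of finer classes go by the median over the cell libraries with at least 50 cells of the class and were not tested. Smooth muscle-, pericyte-, Schwann- and lymphatic endothelial-like cells reached 50 in the detrusor libraries alone. Dendritic-, plasma- and B-like cells did so in whole-bladder libraries alone. In ranks across these classes, class and library cannot be told apart. Per-library values follow in the order 22-month male, 3-month male, 12-month mixed 1, 12-month mixed 2 and 24-month mixed.

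Dusp16, a cytoplasmic and nuclear phosphatase of JNK, had 47.9, 30.7, 62.4, 67.6 and 65.0 CPM in urothelial-like cells. In fibroblast-like cells of the same libraries it had 5.63, 7.46, 11.6, 15 and 12.6 CPM. The urothelial value was the higher in 5 of 5 libraries, by 2.63 on the log2 scale (SE 0.22, adjusted p = 8.4e-08 by edgeR). Immune-like cells lay between, at 16.3 to 23.5 CPM, which was 1.23 above fibroblast-like and -1.40 against urothelial-like cells on the log2 scale. The latter was -0.76 in the male pair (adjusted p = 0.051 by edgeR). Over all 13 classes in the 7 cell libraries, urothelial-like cells ranked first at 30.7 to 103 CPM, above dendritic-like cells at 24.6 to 28.7 CPM without overlap. The ranges of mesothelial-like (up to 33.3 CPM), plasma-like (up to 34.8 CPM) and macrophage-like cells (up to 47.1 CPM) reach into it.

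Dusp2 was high in immune-like and endothelial cells. It stood at 266, 159, 59.2, 257 and 137 CPM in immune-like cells and at 1.01 to 5.53 CPM in fibroblast-like and 1.17 to 3.57 CPM in urothelial-like cells. The difference was 6.40 against fibroblast-like cells (SE 0.36, adjusted p = 3.3e-09 by edgeR) and 6.60 against urothelial-like cells, both log2. By class, dendritic-like cells held 249 to 341 CPM, blood endothelial-like cells 215 to 244 CPM, T or NK-like cells 131 to 344 CPM and lymphatic endothelial-like cells 139 to 147 CPM. The ranges of blood endothelial and T or NK-like cells overlap, while the dendritic range lies above the blood endothelial one. Macrophage-like cells spanned 30.9 to 257 CPM and plasma-like cells 38.0 to 131 CPM, and the 1 library with enough B-like cells gave 173 CPM (14 counts). Pericyte-like cells had 3.17 to 6.67 CPM.

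Dusp5 ranked highest in T or NK-like cells, at 498 to 609 CPM, and next in dendritic-like cells, at 195 to 252 CPM. Immune-like cells as a whole had 194, 156, 119, 190 and 124 CPM, urothelial-like cells 86.8, 42.4, 64.3, 73.0 and 79.4 CPM, and fibroblast-like cells 9.18, 7.96, 26.1, 42.8 and 18.7 CPM. This order held in each library, and the steps were 1.32 (immune over urothelial) and 2.12 (urothelial over fibroblast) on the log2 scale, each called.

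Dusp1 was lower in urothelial-like than in fibroblast-like cells, with 931, 982, 253, 346 and 248 CPM against 2189, 2496, 1849, 2240 and 1665 CPM. The difference was -2.09 (log2, SE 0.32, adjusted p = 4.9e-05 by edgeR). It was -1.18 in the 2 male libraries alone and -2.43 in the 3 mixed-sex libraries alone. In immune-like cells Dusp1 had 2797, 5121, 519, 1132 and 980 CPM, with the male libraries above and the mixed-sex libraries below their fibroblast-like cells. The pooled difference of -0.18 was not called (adjusted p = 0.65 by edgeR), while it was 1.21 in the male pair, a split chosen after these values were seen and given as a description, and -0.94 in the mixed-sex libraries (adjusted p = 0.0065 by edgeR). The immune-like mix also differed: the first 12-month library held 61 plasma-like cells among 128 and the second held macrophage-like cells alone. Its part in the difference was not tested. By median over the 7 cell libraries, dendritic-like (1087 to 4115 CPM, 3 libraries) and macrophage-like cells (1132 to 6498 CPM, 6 libraries) ranked first with overlapping ranges, and urothelial-like cells (166 to 982 CPM, 6 libraries) last, within reach of mesothelial-like (236 to 2101 CPM) and plasma-like cells (175 to 2499 CPM). The summed induced transcription factors were 5785 to 12234 CPM in urothelial-like and 22555 to 27975 CPM in fibroblast-like cells.

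Dusp3 was low in urothelial-like cells, at 5.55 to 9.46 CPM against 12.6 to 48.2 CPM in fibroblast-like cells (log2 difference -1.64, SE 0.20). It was -0.90 in the male pair and -1.95 in the mixed-sex libraries. Immune-like cells lay above both classes in Dusp3, by 0.83 over fibroblast-like and 2.47 over urothelial-like cells (log2), each called. Lymphatic endothelial-like cells of the detrusor libraries ranked first at 263 to 314 CPM. Smooth muscle-like cells of the same libraries came next at 117 to 136 CPM, within the 9.33 to 145 CPM of blood endothelial-like cells. Dusp8, a stress-responsive phosphatase of JNK and p38, ranked first in smooth muscle-like cells of the detrusor libraries at 75.8 to 93.2 CPM. Pericyte-like cells (41.7 to 89.7 CPM) overlapped with them and Schwann-like cells (34.7 to 63.1 CPM) lay lower. Macrophage-like cells reached into that range in the detrusor-only library (79.6 CPM), against 21.6 CPM in the detrusor-enriched and 1.92 to 7.51 CPM in whole-bladder libraries. In each detrusor library the smooth muscle-like value was the highest of the named classes. Its difference between urothelial-like and fibroblast-like cells of -1.20 (log2, adjusted p = 0.011 by edgeR) was -1.72 in the mixed-sex libraries alone and -0.075 in the male pair. The call was lost without any 1 mixed-sex library (-1.05 to -0.93, adjusted p 0.0504 to 0.076) and with doublets kept (-0.90, adjusted p = 0.099).

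Dusp6 ranked first in Schwann-like cells, at 173 to 390 CPM in the detrusor libraries. Blood endothelial-like cells (97.2 to 173 CPM) and lymphatic endothelial-like cells of the detrusor libraries (101 to 112 CPM) followed, with ranges that overlap each other. In urothelial-like cells it had 27.3, 26.7, 19.6, 32.1 and 16.7 CPM against 9.38, 14.4, 7.22, 28.9 and 10.6 CPM in fibroblast-like cells, higher in 5 of 5 libraries (log2 difference 1.18, adjusted p = 0.012 by edgeR). Without the library term that call was lost (adjusted p = 0.058). The immune-like excess over fibroblast-like cells of 1.61 was 2.71 in the male pair and 0.51 (adjusted p = 0.28 by edgeR) in the mixed-sex libraries.

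Dusp4 had 24.4, 26.0, 55.8, 84.2 and 52.6 CPM in urothelial-like and 2.27, 3.82, 21.7, 40.7 and 24.8 CPM in fibroblast-like cells (log2 difference 2.06, SE 0.38). The urothelial level was the higher in each library, and the difference was 3.20 in the male pair and 1.53 in the mixed-sex libraries. The call was lost without the library term (adjusted p = 0.14 by edgeR). In immune-like cells it had 4.91, 12.4, 165, 41.7 and 38.3 CPM, and the first 12-month library carried the high value. Without that library, immune-like cells lay at -1.08 against urothelial-like cells (log2, adjusted p = 0.012 by edgeR), a difference that was -0.41 and not called with all 5. By class, plasma-like cells spanned 17.4 to 246 CPM in 2 libraries, a range that holds those of urothelial-like (24.4 to 84.2 CPM) and T or NK-like cells (18.3 to 70.5 CPM). The 1 library with enough B-like cells gave 124 CPM (10 counts).

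Dusp10, a phosphatase of JNK and p38 with a known role in T cells, ranged from 53.4 to 93.4 CPM in T or NK-like cells. The 1 library with enough B-like cells gave 99 CPM, from a sum of 80824 UMIs in which 3 counts stand for 37.1 CPM. Dusp10 was lower in urothelial-like (1.68 to 7.46 CPM) than in fibroblast-like cells (7.22 to 20.3 CPM), by -1.20 on the log2 scale (SE 0.29). Immune-like cells as a whole lay above both, by 1.51 over fibroblast-like and 2.70 over urothelial-like cells (log2), each called. With all 5 libraries, Dusp14 was called between no pair of the 3 broad classes. Its immune-like against urothelial-like difference of -0.29 became -1.07 without the first 12-month library (adjusted p = 0.0055 by edgeR) and -0.97 in the male pair. Its urothelial-like minus fibroblast-like difference was 0.10 (log2, 2 SE interval -0.59 to 0.78), and its ranges of 6.52 to 38.2 CPM and 3.78 to 29.9 CPM over the cell libraries overlap. In blood endothelial-like cells it had 0.688 and 0.962 CPM in the detrusor libraries and 0 counts in the 2 male libraries, which allows up to 10.3 and 14.0 CPM there. Dusp14 in whole-bladder libraries had 111 CPM in the 1 B-like sum. It had 3.05 and 84.0 CPM in T or NK-like cells and 8.71 and 60.8 CPM in plasma-like cells.

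**Figure D2:**
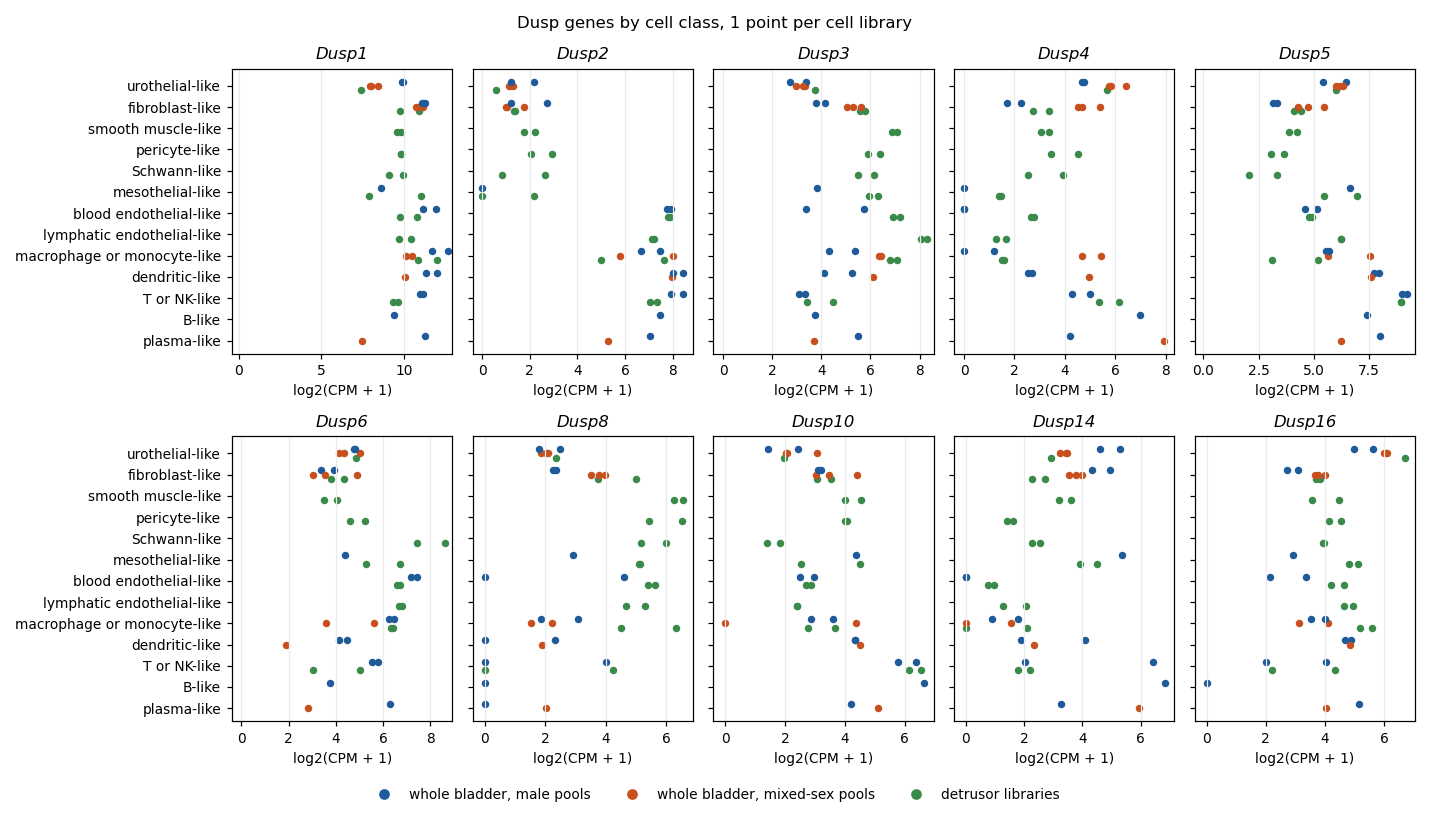
Levels of each gene by cell class, as log2(CPM + 1) on the horizontal axis. Each point is 1 cell library with at least 50 cells of the class, coloured by kind of library. Dusp2 splits immune and endothelial classes from the rest. By median, Dusp16 is highest in urothelial-like cells and Dusp8 in smooth muscle-like cells, and other classes reach into both ranges.

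Between these classes the pathway lists together held both higher and lower genes, though some lists moved in a single direction. Between urothelial-like and fibroblast-like cells, 1 of the 5 Sprouty and Spred genes tested was higher (Spred2, 1.02) and 4 were lower, led by Spry4 (-2.91) and Spry2 (-2.66), all as urothelial-like minus fibroblast-like log2 differences. Of 14 induced transcription factors, Fosl1 was higher (2.06) and 9 were lower, led by Egr2 (-2.41) and Junb (-2.25). Among 8 MAP kinases, 2 were higher, led by Mapk13 (3.18), and 3 lower, led by Mapk9 (-1.29) and Mapk7 (-1.28). The 7 MAP kinase kinases held 2 higher and 3 lower, the 9 Raf and MAP3K genes 3 and 4, the 12 scaffolds and MAPK-activated kinases 3 and 5, and the 8 other Dusp genes 0 and 3. In immune-like against fibroblast-like cells, 4 of the 5 Sprouty and Spred genes were lower, led by Spry4 (-4.04) and Spry1 (-3.28), and 0 higher. Of the 14 induced transcription factors, Etv5 was higher there (1.99) and 8 were lower, led by Egr1 (-2.30). The same 14 against urothelial-like cells held 6 higher, led by Egr2 (2.61), and 1 lower, Fosl1 (-3.29).

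Dusp1 was lower in nuclei than in dissociated cells in both the urothelial-like and the fibroblast-like class, and Dusp5 was lower in the urothelial-like class. In urothelial-like nuclei 4 members were lower than in the 5 whole-bladder cell libraries and 0 higher, where 35.2% of 13307 genes were called, 16.1% as higher and 19.1% as lower. In fibroblast-like nuclei 2 were lower and 0 higher, where 23.9% of 12442 genes were called, 8.33% as higher and 15.5% as lower. The nuclei form 1 library, which the fit assumes to vary like the cell libraries. Scaling by library size alone, a setting chosen after seeing the data, moves the median log2 fold change of all genes from -0.03 to 1.12 in urothelial-like and from -0.32 to 0.56 in fibroblast-like nuclei. Under it the calls are 2 higher and 2 lower in urothelial-like and 1 higher and 1 lower in fibroblast-like nuclei, where 5593 and 3163 of all genes were called.

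Dusp1 had 43 counts (18.5 CPM) in urothelial-like nuclei, against 552 ± 372 CPM (SD, n = 5 libraries) in urothelial-like cells, a 29.9-fold lower level. The fitted log2 difference was -5.91 (SE 0.89, adjusted p = 0.0038 by edgeR). The mean pools 931 and 982 CPM in the male with 248 to 346 CPM in the mixed-sex libraries, and against the mixed-sex libraries alone the fitted difference was -5.37, still called. In fibroblast-like nuclei it had 71 counts (168 CPM) against 2088 ± 330 CPM (SD, n = 5), which is 12.4-fold lower, with a fitted difference of -4.53 (SE 0.52, adjusted p = 0.0072 by edgeR). Both calls held under library-size scaling. Smooth muscle-like nuclei gave 22.8 CPM, and smooth muscle-like cells of the 2 detrusor libraries gave 893 and 756 CPM, a description without a test.

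Dusp5 had 5 counts (2.15 CPM) in urothelial-like nuclei against 69.2 ± 17.1 CPM (SD, n = 5) in cells, 32.2-fold lower (fitted log2 difference -6.21, adjusted p = 0.003 by edgeR). In fibroblast-like nuclei it had 0 counts of 422359, which at 3 counts as the limit for the library (7.10 CPM) makes it at least 2.95-fold lower than the mean of 20.9 CPM in cells. That difference was not called (adjusted p = 0.099 by edgeR), but was by DESeq2 (adjusted p = 0.025) and against the mixed-sex libraries alone (adjusted p = 0.016 by edgeR). Dusp6 in urothelial-like nuclei, at 11.2 CPM against 24.5 ± 6.23 CPM (SD, n = 5), was called lower (-2.31 log2, adjusted p = 0.015 by edgeR), as was Dusp14 at 5.59 CPM against 17.9 ± 12.9 CPM (-2.67, adjusted p = 0.033). Both lose the call under library-size scaling (adjusted p 0.11 and 0.25), and Dusp14 also without the 22-month male library (adjusted p = 0.054). Dusp14 in fibroblast-like nuclei rests on 1 count (adjusted p = 0.025 by edgeR, 0.080 by DESeq2).

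Dusp3 and Dusp16 were not lower in nuclei. Dusp16 had 356 counts (153 CPM) in urothelial-like nuclei against 54.7 ± 15.4 CPM (SD, n = 5) in cells, and 49.7 CPM in fibroblast-like nuclei against 10.5 ± 3.84 CPM. Dusp3 had 26.2 CPM against 7.94 ± 1.67 CPM in the urothelial-like and 78.1 CPM against 29.7 ± 14.9 CPM in the fibroblast-like class. The nuclei value lay above each of the 5 cell libraries for both genes in both classes. The nuclei value lay outside the range of the cell libraries for 74.4% of all genes in urothelial-like and 73.8% in fibroblast-like nuclei. As fitted with TMM scaling none of these differences was called, and the urothelial-like Dusp16 difference of 0.21 turned to -0.20 in the mixed-sex libraries alone, which called Dusp16 higher in fibroblast-like nuclei (1.15, adjusted p = 0.035 by edgeR). Under library-size scaling, Dusp3 (1.72, adjusted p = 0.0098 by edgeR) and Dusp16 (1.48, adjusted p = 0.023) were called higher in urothelial-like nuclei, and Dusp16 in fibroblast-like nuclei (2.31, adjusted p = 0.02).

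Among the remaining genes, Dusp4 was at 42.6 CPM in urothelial-like nuclei, within the 24.4 to 84.2 CPM of cells but under the 52.6 to 84.2 CPM of the 3 mixed-sex libraries. Against those alone it was called lower (-2.03, adjusted p = 0.0047 by edgeR). In fibroblast-like nuclei Dusp4 rested on 3 counts, with a fitted difference of -2.74 against the mixed-sex libraries alone. Dusp6 rested on 1 count there, at -3.36 with all 5 cell libraries and -2.96 without the second 12-month library. Dusp2 had 1 count in urothelial-like and 0 in fibroblast-like nuclei, under the 3 counts taken as the limit of detection. Dusp8 and Dusp10 had 4 to 7 counts in the urothelial-like and fibroblast-like nuclei and were not called there with all 5 cell libraries. Smooth muscle-like nuclei, which enter no test, held 62 counts of Dusp8 (34.5 CPM). In urothelial-like nuclei, Dusp8 (-1.91, adjusted p = 0.011 by edgeR) and Dusp2 (1 count, adjusted p = 0.023) were called lower against the mixed-sex libraries alone. Both were also called without the 3-month male library (adjusted p 0.023 and 0.047), Dusp8 with doublets kept (adjusted p = 0.030) and Dusp2 from 1000 UMIs (adjusted p = 0.043). The difference between nuclei and cells did not itself differ between the 2 classes for any member by edgeR (0 called, 1 at an unadjusted p under 0.05, Dusp16), where 0.207% of 14039 genes were called and 11.3% had an unadjusted p under 0.05. In simulated data of this layout the interaction test recovered 0% of genes changed by 2 on the log2 scale. The simulated spread was the same for all genes and not taken from these data. With 1 library of nuclei, the count of 0 members says little. The count of 29 genes called overall was 205 by DESeq2, 721 with mixed-sex libraries alone, 1 by RLE, and 1 to 146 with 1 library left out (146 without the 22-month male library). Of 14 induced transcription factors tested, 13 were lower in urothelial-like and 11 in fibroblast-like nuclei, with 0 higher in either. Their summed level was 801 and 1191 CPM in these nuclei.

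**Figure D3:**
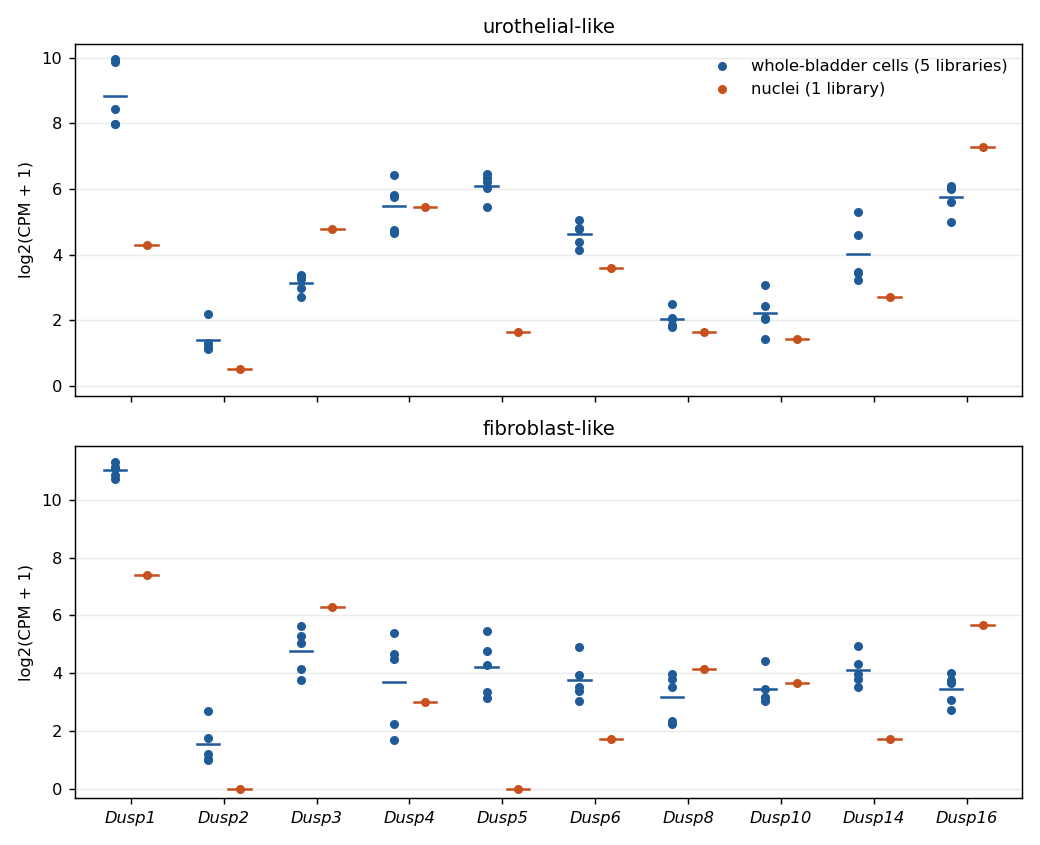
Levels of the 10 genes in urothelial-like (top) and fibroblast-like (bottom) cells and nuclei, as log2(CPM + 1). Each point is 1 library (5 of whole-bladder cells, 1 of nuclei) and each bar is the mean. Dusp1 in both panels and Dusp5 in the top panel lie far lower in nuclei, Dusp5 at the bottom has 0 counts and was not called, and Dusp3 and Dusp16 lie above every cell library.

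In frozen sections, Dusp4, Dusp14 and Dusp16 were higher and Dusp3, Dusp6, Dusp8 and Dusp10 lower in urothelium-rich than in muscle-rich spots, a share of the members near that of all genes. Spots were ranked in each section by the share of their counts in the urothelial and in the smooth muscle marker list, and the highest 10% by each formed 2 sets. Such a set is a range of spots, not a cell type, and a spot can hold several cells. Each set held 94 to 132 spots, with median UMIs per spot of 36599 to 67258 in the urothelial set and 11163 to 17436 in the muscle set. The part of this depth gap in the differences was not tested. Between urothelium-marker-high and muscle-marker-high spots, 7 of the 9 members tested were called, 3 higher and 4 lower, where 69.8% of 11829 genes were called (36.4% higher, 33.4% lower). The direction was the same in all 4 sections for 6 of the 7 (all but Dusp8) and for 75.5% of all genes tested. Dusp2 stayed under the filter on low counts, with 0 to 7 counts per set. Values follow in the order 22-month sections 1 and 2, then 14-month sections 1 and 2.

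Dusp16 had 95.6, 74.6, 90.4 and 99.2 CPM in urothelium-marker-high spots and 7.78, 9.69, 11.3 and 10.6 CPM in muscle-marker-high spots. Each section showed the gap, with a log2 difference of 3.07 (SE 0.16, adjusted p = 8e-12 by edgeR). Dusp3 had 25.8, 27.0, 25.3 and 15.2 CPM in the urothelial set and 121, 123, 129 and 79.4 CPM in the muscle set (log2 difference -2.41, SE 0.11, adjusted p = 1.5e-12 by edgeR). Section 14-month 2 was the lowest in both sets. Dusp4 (7.12 to 11.0 against 1.11 to 3.01 CPM, log2 2.14) and Dusp14 (6.94 to 10.5 against 0 to 3.34 CPM, log2 2.48) were higher in the urothelial set without overlap. The Dusp14 value of 0 in the muscle set of 14-month section 2 allows up to 2.45 CPM, taking 3 counts as the limit. Dusp10 had 1.47 to 2.35 CPM there and 8.34 to 15.1 CPM in the muscle set (log2 difference -2.55, SE 0.33).

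Dusp8 varied widely between sections in the muscle set, at 16.1, 2.42, 79.1 and 22.1 CPM, against 4.22, 4.70, 5.73 and 2.95 CPM in the urothelial set. It was higher in the muscle set in 3 of 4 sections. Its call (log2 difference -2.64, adjusted p = 0.027 by edgeR) was lost without 22-month section 1 (adjusted p = 0.10) or 14-month section 2 (adjusted p = 0.12). Dusp6 was lower in the urothelial set in 4 of 4 sections, by -0.64 (SE 0.19), a call lost without the section term (adjusted p = 0.072 by edgeR). Dusp1 (log2 difference -0.43, 2 SE interval -1.20 to 0.34) and Dusp5 (0.13, -0.62 to 0.88) were not called between zones. Their levels turned more on the section: Dusp1 over all spots was 43.5, 17, 229 and 70.7 CPM and Dusp5 was 3.43, 3.97, 44.3 and 7.72 CPM. The summed induced transcription factors were 736, 545, 3435 and 1337 CPM in the same order, so they too were highest in 14-month section 1. Without that section the zone difference was 0.15 for Dusp1 (adjusted p = 0.43 by edgeR) and -0.74 for Dusp5 (adjusted p = 0.11), both turned in direction and not called. Dusp8 was then at -1.81 (adjusted p = 0.0088).

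Of the Sprouty and Spred genes, Spred2 was higher (1.03) and 4 of the 5 tested were lower in the urothelial set, led by Spry2 (-2.51) and Spry1 (-1.96). The 9 MAP kinases tested held 6 higher, led by Mapk13 (3.00) and Mapk11 (1.66), and 2 lower (Mapk7 at -0.65, Mapk14 at -0.51). The induced transcription factors held 1 higher and 3 lower of 11 tested.

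**Figure D4:**
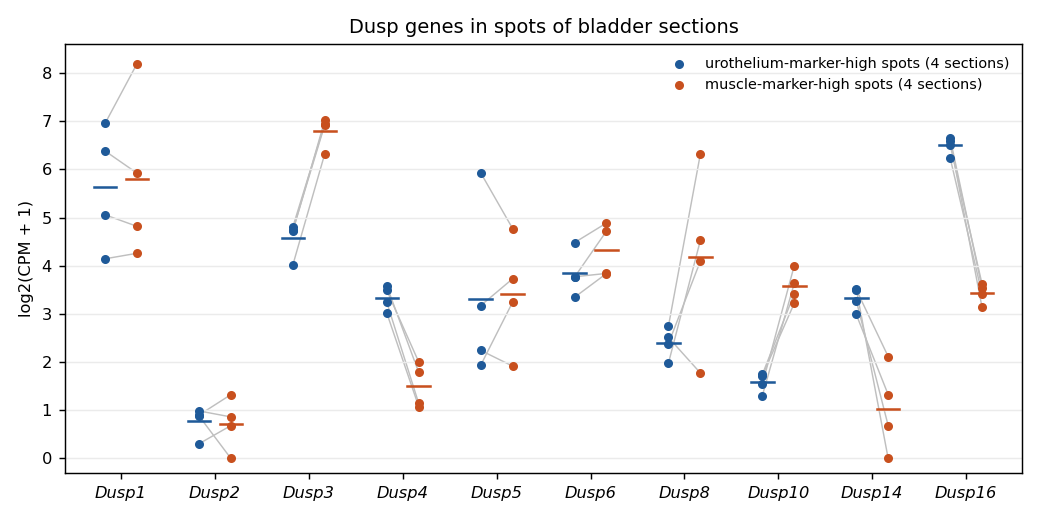
Levels of the 10 genes in the 2 spot sets of each section, as log2(CPM + 1). Each point is 1 of 4 sections, grey lines join the sets of a section and bars are means. Dusp16, Dusp4 and Dusp14 are higher in urothelium-marker-high spots, and Dusp3 and Dusp10 in muscle-marker-high spots.

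Age went with no called difference in any member. In a fit with a term for male or mixed-sex pool, older (22 and 24 months) against younger (3, 12 and 12 months) libraries gave 0 of 10 members in urothelial-like cells by edgeR (1 at an unadjusted p under 0.05, Dusp5, and 0 called by DESeq2). In fibroblast-like cells the result was 0 of 9 (0 at an unadjusted p under 0.05, 0 called by DESeq2), with Dusp2 under the filter. Over all genes tested 0% were called in either class by edgeR, and 2.8% and 2.07% had an unadjusted p under 0.05. The Dusp5 values in urothelial-like cells were 86.8 and 79.4 CPM in the older and 42.4, 64.3 and 73.0 CPM in the younger libraries (log2 difference 0.58, 2 SE interval 0.13 to 1.03). It was 0.19 without either male library and 1.14 without the 24-month library, not called in any of these. Sections of 22 against 14 months also gave 0 of 10 by edgeR (2 at an unadjusted p under 0.05, Dusp6 and Dusp14, and 0 called by DESeq2), where 0% of 14995 genes were called and 16.6% had an unadjusted p under 0.05. DESeq2 called 426 of all genes there. Without 14-month section 2, Dusp5 was called lower at 22 months (log2 difference -3.54, adjusted p = 0.0075 by edgeR), with section 1 then the only 14-month section and assumed to vary like the others.

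Across 50 sums of cells or nuclei, 1 per library and class with at least 50 cells, the gene most like each member was found by Pearson's r of log2(CPM + 1). These points share libraries and depth, so r is a description. Dusp1 was most like Ier2 (r = 0.91) and Junb (0.89), both immediate-early genes. Dusp2 was most like Arpc3 (0.88), a subunit of the actin-nucleating Arp2/3 complex, and Slfn2 (0.87). Dusp3 was closest to Nrp2 (0.82), a receptor of lymphatic endothelium, and Ccdc88a (0.80). Dusp5 came closest to Snrpg (0.83) and Rps9 (0.79), and Dusp16 to Ube4a (0.76) and Cds1 (0.72). The others reached 0.71 to 0.75, Dusp4 with Tma7 and Jakmip1, Dusp6 with Pim3 and Fam212a, Dusp8 with Cnksr3 and Jdp2, Dusp10 with Acap1 and Tex30, and Dusp14 with Clpp and Bcas2. Among the members themselves, the highest r was that of Dusp2 with Dusp5 (0.62) and the lowest that of Dusp3 with Dusp14 (-0.53).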

How the data were processed

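Gene counts of the 6 bulk libraries, UMI counts per barcode of the 8 droplet libraries and UMI counts per spot of the 4 sections were deposited by the authors as raw counts. Per the submitters' processing notes, bcl2fastq, Cell Ranger, Space Ranger, Subread and featureCounts were used with the mm10 build; versions and settings are not given in the sources used here. Per the labels' protocols, bulk libraries were polyadenylated RNA.

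The members and gene lists were chosen with earlier results of these data known. Barcodes under 500 UMIs, or with more than 20% of counts from mitochondrial genes, were removed. Doublets were scored with simulated pairs and the highest-scoring barcodes removed at a rate of 0.8% per 1000 barcodes. Each library was clustered on its own (2000 variable genes, 30 principal components, 15 neighbours, Leiden resolution 1, leidenalg 0.10.2) without the members and mitochondrial genes. A cluster was named from marker lists when its score was at least 0.25 and at least 3 markers were detected in 10% of its cells with a 2-fold excess over the cluster at the 25th percentile, a rule settled after the clusters were seen. Mitochondrial genes, which are at 0 in the 2 male tables, were left out of the droplet fits. Counts were summed per library and class with at least 50 cells. Spots with at least 500 UMIs were used.

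Tests were edgeR 4.0.16 (R 4.3.3) quasi-likelihood fits, two-sided, with TMM scaling, filterByExpr and Benjamini-Hochberg adjustment over all genes, with a call at an adjusted p under 0.05. Each SE is the log2 fold change divided by the root of its F statistic. Alternatives were RLE size factors, DESeq2 1.42.0, no filter, other cell and spot filters, other terms and each library left out. The tests were checked on simulated counts: genes changed by 2 on the log2 scale were recovered in 95% of cases in the bulk fit, 98% in the urothelial against fibroblast fit, 96% in the spot-set fit, 27% and 24% in the nuclei fits, and 63%, 65% and 61% in the age fits of urothelial-like cells, fibroblast-like cells and sections. Genes changed by 1 were recovered in 11% of cases in the bulk fit. The simulation set the same spread for every gene and, before the changes, the same mean for all libraries and classes. It changed only genes above a minimum count, and its spread was not taken from these data. The real bulk fit called 59.2% of genes, so these shares do not measure the power of the real fits.

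Named genes were all members, up to 2 called genes with the largest rise and fall per pathway list, and the 2 genes most like each member among those with a mean of at least 10 CPM. Bulk replicate numbers are not tied to animals, and samples with the same number did not deviate together in every pair, so the bulk fit has no block.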

Additional observations from a re-analysis of the deposited data

Results flagged for a closer look

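Of 60 sets checked, each of 4 sections or 5 whole-bladder libraries, 9 held a sample far from the others by Dixon's criterion. Chance gives about 1 in 20 for a single set. The sets share samples, and the sums over all spots hold the marker-high spots, so the count of 9 cannot be read as an excess. In the sections, 14-month section 1 had the outlying values of Dusp1 in muscle-marker-high spots (292 CPM, others 18.2 to 59.7), of Dusp5 over all spots (44.3 CPM, others 3.43 to 7.72) and in urothelium-marker-high spots (60.1 CPM, others 2.82 to 8.02), and of Dusp10 over all spots (5.54 CPM, others 3.43 to 3.72). The 14-month section 2 was low in Dusp3 in urothelium-marker-high spots (15.2 CPM, others 25.3 to 27.0) and in muscle-marker-high spots (79.4 CPM, others 121 to 129).

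In whole-bladder cells, Dusp2 in urothelial-like cells was high in the 22-month male library (3.57 CPM, others 1.17 to 1.48). Dusp4 in immune-like cells was high in the first 12-month library (165 CPM, others 4.91 to 41.7). Dusp10 in fibroblast-like cells was high in the second 12-month library (20.3 CPM, others 7.22 to 10.1).

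All 10 members were checked in each pair of the 3 broad classes for a split between male and mixed-sex libraries. In 2 cases every male library moved one way and every mixed-sex library the other. The number of such cases that chance gives, and the share over all genes, were not computed. The Dusp1 log2 ratio of immune-like to fibroblast-like cells averaged 0.69 in the male libraries and -1.19 in the mixed-sex libraries (-1.83 to -0.76). The Dusp14 log2 ratio of urothelial-like to fibroblast-like cells averaged 0.31 and -0.40 (-0.57 to -0.11). These differences between pools were not tested.

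The detrusor libraries, which enter no test, gave 2 levels in fibroblast-like cells above every whole-bladder library. All 10 members were checked in each detrusor library, for values above the range only. The number that chance gives, and the share over all genes, were not computed. Dusp3 was at 54.4 CPM in the detrusor-enriched library (whole-bladder 12.6 to 48.2), and Dusp8 at 30.7 CPM in the detrusor-only library (whole-bladder 3.82 to 14.9).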

How the results depend on the processing

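Over 1208 member values under alternative settings, called members gave 516, of which 491 kept direction and call, 25 lost the call and 0 changed direction. Uncalled members changed direction in 55 and passed the threshold in the same direction in 26. Library-size scaling moved the median of all bulk genes from -0.03 to -0.14 (log2). The bulk replicate block left 9 members called (8 higher, 1 lower) and changed no member's call. Same-numbered bulk samples correlated at -0.06 to 0.39, and 3 of 6 correlated best with their own number. Low counts limit several members in nuclei. The male-pair setting, and for nuclei the settings of 1000 UMIs and library size, were chosen after seeing the data.

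A minimum log2 fold change of 1 left 5 members and 1789 of 16538 genes called in bulk. The mixed-sex libraries alone gave 7 members called in urothelial-like and 5 in fibroblast-like nuclei, where the calls over all genes went from 4688 to 7565 and from 2968 to 4751. Leaving out 1 library at a time gave 8 to 10 members called in bulk, 7 to 8, 7 to 8 and 6 to 8 in the class comparisons (urothelial against fibroblast, immune against fibroblast, immune against urothelial), 3 to 6 and 2 to 3 in urothelial-like and fibroblast-like nuclei, 6 to 7 between spot sets and 0 to 1 between section ages. Over all genes the calls were then 8128 to 9782, 6444 to 7326, 5742 to 6609, 6109 to 6840, 3508 to 4922, 2039 to 3054, 7577 to 8151 and 0 to 300, in that order.

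Reversals were of values not called as reported, on the log2 scale, and the cause was not tested. With mixed-sex libraries alone, urothelial against fibroblast gave 0.14 for Dusp2 and -0.011 for Dusp14, immune against fibroblast 0.41 for Dusp14, immune against urothelial 0.15 for Dusp4, -0.57 for Dusp6, -0.51 for Dusp8 and 0.42 for Dusp14, and urothelial-like nuclei -0.20 for Dusp16. With the male pair alone, immune against fibroblast gave 1.21 for Dusp1 (adjusted p = 0.00055 by edgeR, past the threshold in the other direction) and 0.47 for Dusp8. Without the library term it gave 0.23 for Dusp1. Immune against urothelial gave Dusp8 -0.071 with doublets kept and -0.14 from 1000 UMIs. Fibroblast-like nuclei gave Dusp8 0.17 (RLE), 0.14 (DESeq2), 0.37 (doublets kept), 0.78 (1000 UMIs) and 0.91 (library size), and Dusp10 0.23 (library size). The nuclei interaction gave Dusp3 -0.082 (RLE) and -0.024 (1000 UMIs), and Dusp2 -2.39 (doublets kept) and -6.73 (1000 UMIs). Age in urothelial-like cells without the sex-mix term gave 0.11 for Dusp1 and -0.048 for Dusp16, age in fibroblast-like cells with doublets kept 0.29 for Dusp10, and spot sets by DESeq2 -0.21 for Dusp5.

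With 1 library left out, the range crossed 0 for Dusp2 in urothelial against fibroblast (-0.42 to 0.40), Dusp1 (-0.37 to 0.34) and Dusp14 (-0.72 to 0.21) in immune against fibroblast, Dusp8 in immune against urothelial (-0.30 to 0.42) and in fibroblast-like nuclei (-0.28 to 0.28), and Dusp3 in the interaction (-0.076 to 0.20). It did so for age in urothelial-like cells in Dusp1 (-0.30 to 0.026), Dusp4 (-0.44 to 0.012), Dusp6 (-0.65 to 0.14), Dusp14 (-0.61 to 0.058) and Dusp16 (-0.024 to 0.75), and in fibroblast-like cells in Dusp5 (-0.88 to 0.30) and Dusp10 (-0.38 to 0.31). It did so for section age in Dusp2 (-0.38 to 0.32), Dusp3 (-0.28 to 0.33), Dusp10 (-0.59 to 0.13) and Dusp16 (-0.10 to 0.14), and for spot sets in Dusp1 (-0.77 to 0.15) and Dusp5 (-0.74 to 0.49). Among all genes, the section age count of 0 was 426 by DESeq2 and 287 without the filter, and the urothelial-like age count of 0 was 2 and 146. With 1 library left out these counts were 0 to 300 (300 without 22-month section 1, 18 without 14-month section 2) and 1 to 44 (44 without the first 12-month and 32 without the 24-month library). The fibroblast-like age count of 0 was 9 without the filter and 0 to 121 with 1 library left out (121 without the 24-month library).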
